A study of Mus musculus with 27 samples.

Results

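Among the 9 mice of the group labelled Veh, 4 (Veh 2, Veh 4, Veh 5 and Veh 7) stood out by a low liver level of Cyp7b1 together with a high level of Cyp2b9, and they are described here against the other 5 Veh mice (Veh 1, Veh 3, Veh 6, Veh 8 and Veh 9). They are 4 of 27 mice, since the series also holds 9 Con and 9 Dex mice. Liver RNA from 1 mouse was hybridised to each Affymetrix array, and a probe set is a group of short probes that reads 1 transcript. The labels name the groups only as Con, Veh and Dex. They spell out none of these names, and they give no agent, dose, time, sex, strain, age or purpose, nor anything other than liver that all the groups share. Nothing in the labels sets the 4 mice apart from the other 5. Because the mice were picked by values on the same arrays, every Veh value below is a description without a test. The direction of the differences in Cyp7b1 and Cyp2b9 was fixed by the choice, which also favours genes that vary with them. Tests were possible only in the 18 Con and Dex mice, which the choice did not use.

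All 3 genes that mark the 4 mice encode enzymes with a strong sex bias in mouse liver. Cyp7b1, an oxysterol and steroid hydroxylase, and Hsd3b5, a ketosteroid reductase, are typical of adult males, while Cyp2b9 is a cytochrome P450 typical of females. The sex bias of such genes is set largely by the rhythm of growth hormone release, which acts on hepatocytes through the growth hormone receptor and STAT5b. The same liver also makes the acute phase proteins, plasma proteins such as serum amyloid A whose synthesis climbs during inflammation, and hepatocyte P450 levels are known to drop in that state.

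Cyp2b9 lies beside a close relative, Cyp2b13, whose probe set had the largest positive difference among the genes whose values did not overlap between the 4 mice and the other 5. The stretches of 250 bases directly before the start of the 2 genes are shown here because they are nearly the same sequence, with 248 of 250 bases identical (99.2%). Both come from RefSeq promoter entries of GRCm38.p6, plus strand, and run 5′ to 3′, at chr7:26173159-26173408 for Cyp2b9 and chr7:26061245-26061494 for Cyp2b13. Capitals mark the bases at which they differ.
Cyp2b9: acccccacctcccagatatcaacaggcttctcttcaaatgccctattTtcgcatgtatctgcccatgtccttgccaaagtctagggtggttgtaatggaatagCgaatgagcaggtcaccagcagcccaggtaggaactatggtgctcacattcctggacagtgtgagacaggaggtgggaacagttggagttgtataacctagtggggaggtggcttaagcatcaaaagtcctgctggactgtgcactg
Cyp2b13: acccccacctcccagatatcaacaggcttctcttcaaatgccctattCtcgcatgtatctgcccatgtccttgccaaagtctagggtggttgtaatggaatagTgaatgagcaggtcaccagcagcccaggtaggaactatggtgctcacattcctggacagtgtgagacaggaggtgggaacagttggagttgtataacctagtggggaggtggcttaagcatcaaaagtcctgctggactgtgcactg
With genes this alike, probes made for 1 transcript may bind the other, so the 2 probe sets cannot be read as separate measurements with certainty. The motif TTCNNNGAA, a palindrome that STAT5 proteins are known to bind, was in neither sequence, searched on both strands from 250 bases before to 50 after each start. Of the genes lower in the 4 mice, 145 had promoter entries, and 6.78% of their 177 promoters held the motif. Of the genes higher in the 4, 51 had entries, and the motif was in 7.04% of 71 promoters. The share was 6.48% over all 5199 promoters of measured genes and 8.30% over all 32851 promoters in the table.

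Levels are given as log2 intensity, so a difference of 1 is 2-fold, and values at or under 2.6 intensity units were set to that floor, which is 1.38 on the log2 scale. Cyp7b1 was at 5.43 in Veh 2, 5.61 in Veh 4, 5.81 in Veh 5 and 6.24 in Veh 7, against 9.74, 9.45, 7.83, 9.04 and 9.25 in Veh 1, 3, 6, 8 and 9. Cyp2b9 was at 11.68, 10.88, 10.94 and 10.11 in the 4 mice and at 1.63, 4.19, 7.63, 8.79 and 8.43 in the other 5. The edge of the choice thus lay between 6.24 and 7.83 for Cyp7b1 and between 10.11 and 8.79 for Cyp2b9. Veh 6, the outside mouse nearest in Cyp7b1, was the middle one of the other 5 in Cyp2b9. A second Cyp7b1 probe set gave medians of 5.76 in the 4 mice and 8.79 in the other 5.

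Hsd3b5 was at 2.63, 3.12, 6.12 and 2.38 in Veh 2, 4, 5 and 7, and between 9.27 and 9.94 in the other 5. Veh 5 kept the most Hsd3b5 of the 4, yet it lay well below every other Veh mouse. All 9 Con mice had high Cyp7b1 (9.57 to 10.97), low Cyp2b9 (1.38 to 4.34) and high Hsd3b5 (10.07 to 10.83). The Dex mice were spread widely, from 6.09 to 10.95 for Cyp7b1, from 4.50 to 11.23 for Cyp2b9 and from 1.38 to 9.40 for Hsd3b5. Among all Con and Dex mice, Dex 1 alone fell inside the ranges of the 4 Veh mice for both Cyp7b1 and Cyp2b9.

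**Figure D1:**
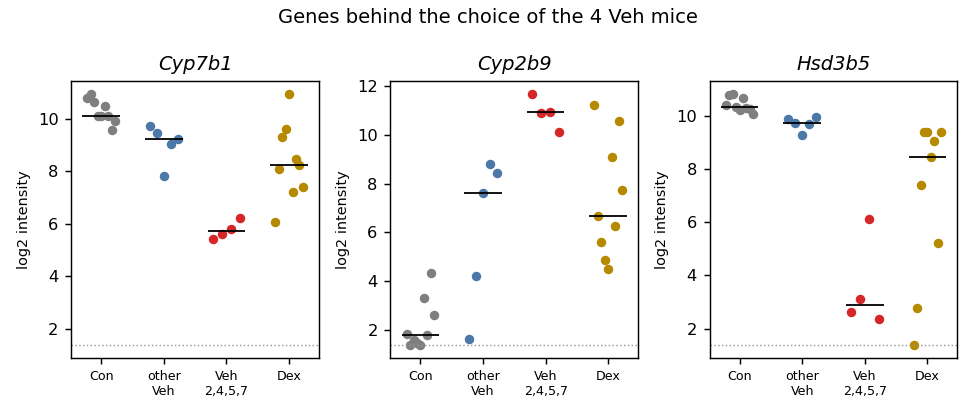
Log2 intensity (y axis) of Cyp7b1, Cyp2b9 and Hsd3b5 in each mouse, by group (x axis), with Veh divided into the 4 mice and the other 5. Points are mice, bars are medians and the dotted line is the floor. The 4 mice sit below the other 5 for Cyp7b1 and Hsd3b5 and above them for Cyp2b9, while the Con mice sit on the side of the other 5.

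The genes that mark sex itself gave no reading of the sex of the mice. Xist, the RNA of the inactive X chromosome, was near the floor throughout, with a highest value of 3.83 in Veh, 3.55 in Con and 3.92 in Dex. Eif2s3y, a Y-linked translation factor, was at 4.68 to 5.57 in the 4 mice and at 4.95 to 6.15 in the other 5, and these ranges overlap. The Y-linked genes Kdm5d and Uty were low in all Veh mice, with highest values of 3.35 and 4.31. Kdm5d reached only 3.41 in Con and 3.22 in Dex. With Xist and Kdm5d both low in every group, these probe sets could not have divided the mice by sex.

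The deposited values had already been scaled array by array, so the original brightness of the arrays cannot be read from them. In these scaled values the arrays of the 4 mice had lower medians on the whole. Their median intensity was 17.6, 22.5, 18.25 and 24.4 in Veh 2, 4, 5 and 7, against 21.5, 28.1, 30.7, 19.6 and 28.2 in Veh 1, 3, 6, 8 and 9, with overlap. For beta-actin, the log2 ratio of 3′ over 5′ control probes, which is larger in degraded RNA, was 0.943 to 1.92 in the 4 and 1.01 to 1.67 in the other 5. It was highest in Veh 2 (1.92) and Veh 3 (1.67), above all Con (at most 1.34) and Dex mice (at most 1.14). The same ratio for Gapdh was 0.217 to 0.679 in the 4 and 0.294 to 0.988 in the other 5, highest in Veh 3. Values in which Veh 2 or Veh 3 stand out below carry this limit. Between 9.68% and 15.1% of probe sets were at the floor in the 4, and between 6.65% and 14.8% in the other 5. The part of these array medians and of RNA quality in the differences below was not tested. Rank correlations between arrays had a median of 0.890 among the 4 (6 pairs), 0.900 among the other 5 (10 pairs) and 0.886 between the sets (20 pairs), so the 4 profiles were no more alike than those of the other 5. On the first principal component of the Veh arrays, which held 24.4% of the variance, the 4 mice lay between 0.12 and 0.51 and the other 5 between -0.46 and -0.02.

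A filter kept probe sets that were above the median of their array in at least 4 of the 9 Veh arrays, which left 6485 probe sets for 5016 genes. A gene high in the 4 mice only could pass through those mice alone, so the counts describe and support nothing. Without the 3 probe sets of Cyp7b1 and Cyp2b9, and with Hsd3b5 kept in although it also marks the 4 mice, 6482 were counted. Of these, 83 (1.28%) were higher in every 1 of the 4 mice than in any of the other 5, and 234 (3.61%) were lower. With medians also at least 2-fold apart, 31 (0.478%) were higher and 61 (0.941%) lower. The median difference over all counted probe sets was -0.16, and 4242 of 6482 had a lower median in the 4 mice. This tilt depended on the scaling. The share of higher among non-overlapping probe sets was 26.2% as deposited, 46.2% after quantile normalization (128 higher, 149 lower) and 59.9% with each array centred on its median (157 higher, 105 lower). Many of the lower ones were also weak signals, since 88 of the 234 had a median under 5 in the 4 mice, against 6 of the 83 higher ones with such a median in the other 5.

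In most of these probe sets the median of the other 5 mice was the nearer one to Con. The median of the other 5 was nearer than that of the 4 to the Con median for 69 of the 83 higher and 213 of the 234 lower probe sets. The median of the 4 lay above all 9 Con mice for 51 of the 83 and below all 9 for 165 of the 234. The same counts were not made over all probe sets, so they cannot be read as particular to these ones. Con arrays also had higher medians in the scaled values. The median log2 level of the kept probe sets was typically 6.49 in Con, 6.39 in the other 5 and 6.11 in the 4.

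The measured genes with a female bias in mouse liver were higher in the 4 mice. Of 13 listed genes on the array 8 passed the filter, which left 7 apart from Cyp2b9. Of these, Cyp2b13 and Hao2 passed only through the 4 mice, where they were high. All 7 had a higher median in the 4, with a median difference of 1.55 (0.84 without Veh 1, and 0.54 under a filter on 9 of 27 arrays) beside -0.16 over all genes, and 4 did not overlap. Over all 5014 genes counted, 1.34% were higher and 3.51% lower without overlap. Cyp2b13, the neighbour of Cyp2b9, was at 8.68, 9.10, 5.03 and 8.46 in Veh 2, 4, 5 and 7, and at 1.38, 1.43, 3.74, 3.70 and 3.92 in Veh 1, 3, 6, 8 and 9. Veh 5 was the lowest of the 4, but it still lay above the other 5. Hao2, a peroxisomal oxidase of hydroxy acids, was at 7.55, 6.01, 6.35 and 4.94 in the 4 mice. In Veh 1, 3 and 6 it was at the floor, and in Veh 8 and 9 it was at 3.56 and 3.89. Since 3 of the other 5 were at the floor, the difference of 4.80 depends on where the floor was set.

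Cyp4a14, a fatty acid hydroxylase, was at 8.72, 9.59, 8.71 and 8.65 in the 4 mice and at 5.55, 7.04, 7.32, 5.02 and 8.07 in the other 5. Veh 2, 5 and 7 were close together, Veh 4 was higher, and Veh 9 came near the lowest of the 4. Its relative Cyp4a10 overlapped, with a median of 8.12 in the 4 and 6.57 in the other 5. Fmo1, a flavin monooxygenase, was the fourth gene without overlap, at 9.64 to 9.92 in the 4 and 8.32 to 9.42 in the other 5. Cyp2b10 had medians of 7.51 and 7.0, and Cyp17a1, a steroid hydroxylase and lyase, of 4.66 and 4.61. The female-biased list thus ran from differences over 4 (Cyp2b13 and Hao2) through 1.68 for Cyp4a14 and 1.55 for Cyp4a10 to 0.54 or less for Fmo1, Cyp2b10 and Cyp17a1.

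Further P450 genes of the Cyp2c family, which metabolise fatty acids and drugs, were among the targets listed for the nuclear receptors PXR and CAR. Cyp2c39 was at 11.28 to 11.90 in the 4 mice and at 9.35 to 10.85 in the other 5. Cyp2c38 was at 11.39 to 11.61 against 10.32 to 11.30, a near miss of overlap, and its probe set may read other Cyp2c transcripts. Of 17 measured PXR and CAR targets without Cyp2b9, 4 were higher without overlap (Cyp2b13, Cyp2c39, Cyp2c38 and Gstm3) and 0 were lower. Over all genes, 1.34% were higher and 3.51% lower without overlap. Cyp2b13 passed the filter only through the 4 mice and may share signal with Cyp2b9, so it adds no separate evidence. The median difference of the list was 0.26 (0.22 to 0.43 with 1 Veh mouse left out, highest without Veh 8).

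Genes with a male bias were lower. All 12 measured members other than Cyp7b1 had a lower median in the 4 mice, with a median difference of -1.16. Lower without overlap were 4 of them (Hsd3b5, Egfr, Keg1 and Ihh), beside 3.51% of all genes. Hsd3b5 is 1 of the 3 genes that mark the 4 mice, so its own separation is no separate evidence. Egfr, the epidermal growth factor receptor, was at 3.04, 6.22, 5.90 and 6.38 in Veh 2, 4, 5 and 7, and at 9.52, 9.20, 9.03, 8.92 and 8.86 in Veh 1, 3, 6, 8 and 9. The other 5 lay within less than 1 log2 unit of each other, and Veh 2 was far below the rest of the 4. Its 3 probe sets all separated the mice, with differences of -2.98, -3.90 and -2.98. Keg1, which encodes an acyltransferase-like protein, was at 7.17 to 9.13 in the 4 and at 9.20 to 9.69 in the other 5. Ihh, a hedgehog ligand, was weak in both sets, at 3.51 to 4.43 against 4.70 to 5.42.

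Other male-biased genes were low in some of the 4 mice and not in others. Cyp4a12b, an arachidonic acid hydroxylase, was at 6.38 in Veh 2 and 8.74 in Veh 4, but at 11.01 in Veh 5 and 10.42 in Veh 7, where the other 5 had 10.82 to 11.75. Serpina12, the secreted protein vaspin, was at 5.73, 6.47 and 6.26 in Veh 2, 5 and 7 and at 9.92 in Veh 4, with 8.05 to 10.15 in the other 5. Socs2, a feedback inhibitor of growth hormone signalling, followed the same mice, at 3.83, 3.78 and 3.36 in Veh 2, 5 and 7, 6.77 in Veh 4 and 5.04 to 6.20 in the other 5. Veh 4 was thus like the other 5 for these last 2 genes. The major urinary proteins, abundant pheromone carriers of male liver, showed small differences, with -0.21 for Mup3 and -0.36 for Mup5, and their probes cross-react among many copies. Cyp2d9, a male steroid hydroxylase, had medians of 7.79 and 7.92.

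**Figure D2:**
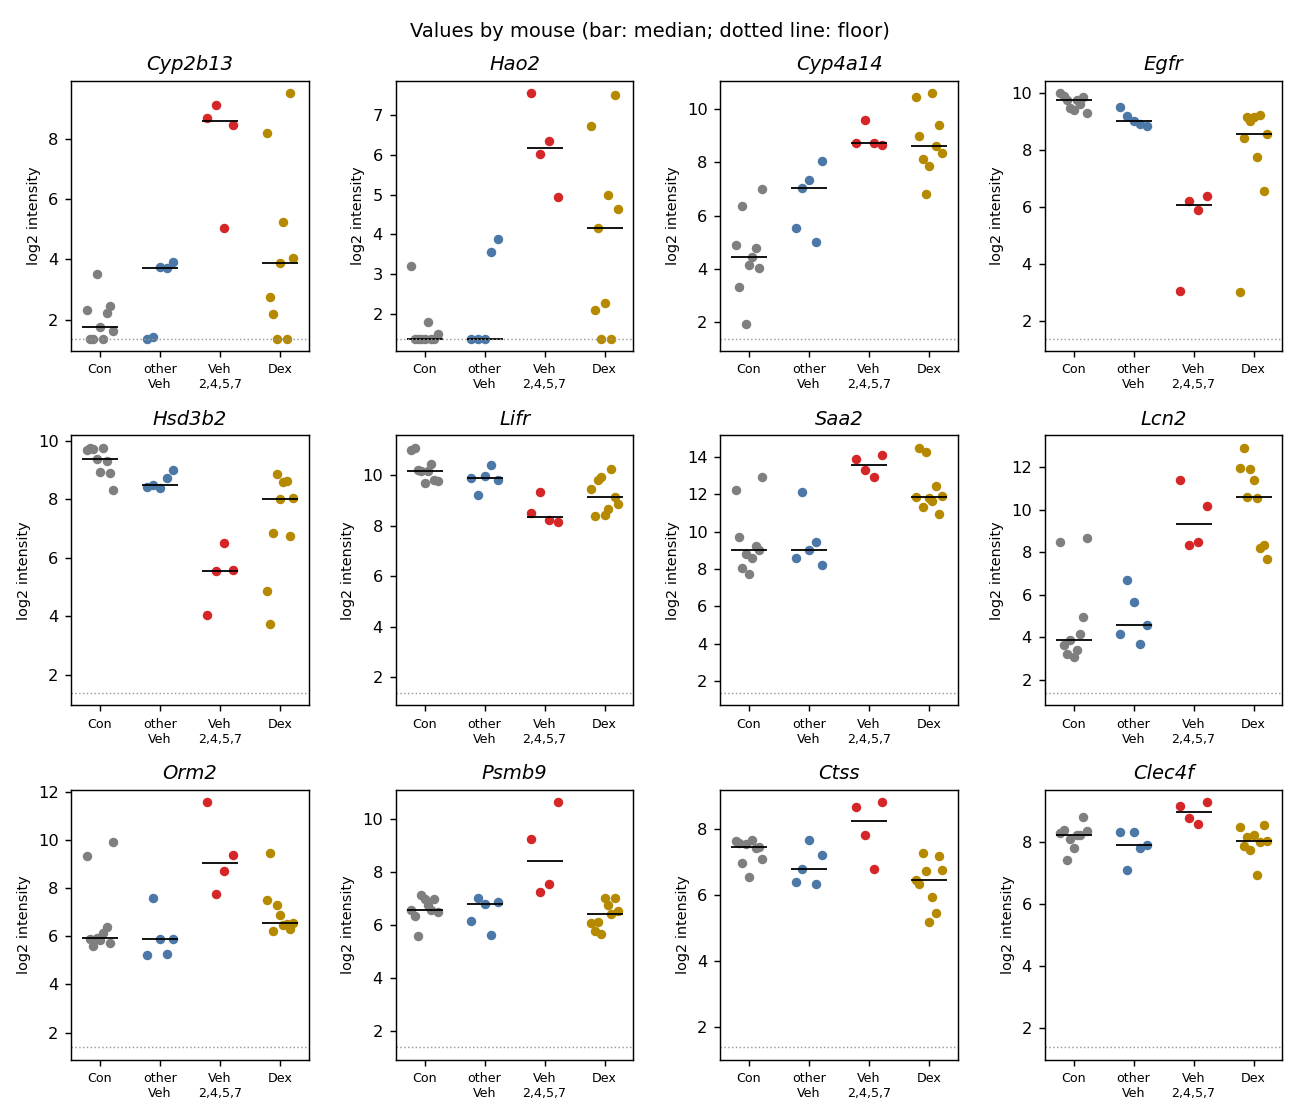
Log2 intensity (y axis) of 12 genes in each mouse, by group (x axis), with Veh divided into the 4 mice and the other 5. Points are mice, bars are medians and the dotted line is the floor. Lifr and Ctss overlap between the Veh sets, and the other 10 genes do not. In Egfr and Hsd3b2 the other 5 sit near the Con mice and the Dex mice reach down to the 4.

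Genes of the growth hormone axis outside these targets differed less. Ghr, the growth hormone receptor, was at 8.96 to 9.93 in the 4 and 9.72 to 10.29 in the other 5. Igf1, the main growth factor made by liver under growth hormone, had medians of 11.56 and 11.79, and its binding partner Igfals of 9.39 and 9.26. Stat5b was weak, with medians of 4.41 and 4.42. Of 19 genes on the list of the growth hormone axis, 16 had a lower and 3 a higher median in the 4, where 35.1% of all genes were higher. The median difference was -0.67 (-0.44 without Veh 6), and 2 were lower without overlap (Egfr and Foxa1), beside 3.51% of all genes. Foxa1, a pioneer factor of liver, was at 3.19 to 4.50 in the 4 and at 4.60 to 6.01 in the other 5. Lifr, the leukaemia inhibitory factor receptor, overlapped only through Veh 4 (9.34) and Veh 3 (9.22) on its brightest probe set. A second Lifr probe set did not overlap (medians 7.30 and 8.79), and another one did. Transcription factors Hnf4a and Onecut1 had differences of -0.69 and -0.67 with overlap.

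The 3-beta-hydroxysteroid dehydrogenases, which convert or reduce steroid hormones, were lower in part. Besides Hsd3b5, Hsd3b2 was at 4.03, 5.54, 6.50 and 5.58 in the 4 mice and at 8.43, 8.47, 8.37, 8.71 and 9.01 in the other 5. The other 5 were tightly grouped, and all 4 mice were well below them. Hsd3b6 was at 3.15, 5.26, 5.13 and 3.49 against 5.48 to 6.81, so Veh 2 and Veh 7 were far below and Veh 4 and 5 just below. Hsd3b3 had medians of 5.21 and 5.24, and Hsd3b7, which acts on bile acid precursors, of 10.69 and 10.84. These genes are close copies of each other, and their probe sets may share signal. Of 14 measured steroid genes without Cyp7b1, the 3 named first were lower without overlap and 0 were higher. Hsd11b1, which regenerates active glucocorticoid, had medians of 11.80 and 11.72. Sult5a1, a liver sulfotransferase, was at 3.62 to 5.05 in the 4 and at 5.84 to 6.87 in the other 5.

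Acute phase proteins made up the next group of large differences. Saa2, a serum amyloid A protein, was at 13.86, 13.29, 12.93 and 14.10 in Veh 2, 4, 5 and 7, and at 8.6, 12.10, 9.0, 9.47 and 8.20 in Veh 1, 3, 6, 8 and 9. Veh 3 was the outside mouse with a high level. A second Saa2 probe set differed by 3.79, and both may read the near-identical Saa1. Lcn2, lipocalin 2, which binds bacterial siderophores, was at 11.40, 8.35, 8.46 and 10.18 in the 4 and at 4.14, 6.71, 5.66, 3.67 and 4.55 in the other 5. Its second probe set, much dimmer, had medians of 4.83 in both sets. Orm2, an alpha-1-acid glycoprotein, was at 11.57, 7.75, 8.71 and 9.38 against 5.22, 7.61, 5.89, 5.24 and 5.90, so that Veh 3 came within reach of Veh 4.

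Most of the acute phase list differed far less. Of 27 measured members, 4 were higher without overlap (Saa2, Lcn2, Orm2 and Serpina3n, the last named after its values were seen) and 0 were lower. Over all genes, 1.34% were higher and 3.51% lower without overlap. The median difference of the list was 0.35 (0.24 to 0.53 with 1 Veh mouse left out, highest without Veh 5). Saa3 overlapped, at 7.45 to 9.29 in the 4 and 5.63 to 8.10 in the other 5. Mt1, a metal-binding protein, was high in Veh 2 (12.73) and in Veh 3 (11.88) and at 5.31 to 8.89 in the remaining 7 Veh mice. High acute phase values also occurred in mice with a Cyp7b1 level typical of Con. Con 1 and Con 9 had Saa2 at 12.21 and 12.93, Lcn2 at 8.46 and 8.69 and Orm2 at 9.32 and 9.93, while their Cyp7b1 was at 10.78 and 9.93. In all 9 Dex mice Lcn2 was at 7.70 or more and Saa2 at 10.96 or more, over the whole span of Cyp7b1 in that group.

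Genes of the interferon response rested on part of the 4 mice. Of 15 measured members 14 had a higher median in the 4, where 35.1% of all genes did, and the median difference was 1.04. Higher without overlap were 2, Psmb9 and Psmb8, subunits of the immunoproteasome (Psmb8 named after its values were seen), beside 1.34% of all genes. Psmb9 was at 9.26, 7.25, 7.55 and 10.63 in Veh 2, 4, 5 and 7 and at 5.64 to 7.03 in the other 5. Igtp, an immunity-related GTPase, was at 9.56 in Veh 2 and 11.65 in Veh 7, but at 6.88 in Veh 4 and 7.01 in Veh 5, inside the range of the other 5 (5.97 to 7.55). Cxcl9, a chemokine induced by interferon gamma, was at 6.66 and 9.31 in Veh 2 and 7 and at 2.58 and 3.10 in Veh 4 and 5. The list's mean level ran from 5.93 to 8.85 in the 4, from 5.43 to 6.67 in the other 5 and from 5.59 to 6.34 in Con. Without Veh 2, and equally without Veh 7, the difference of Igtp was -0.02 in place of 1.26, that of Cxcl9 0.54 in place of 2.32, and the list median 0.30 in place of 1.04. Without Veh 4, and equally without Veh 5, the list median was 1.63.

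Markers of macrophages and Kupffer cells, the resident macrophages of liver, were higher mainly in Veh 2, 4 and 7. Of 16 measured, 12 had a higher median in the 4, where 35.1% of all genes did. The median difference was 0.67 (0.46 to 1.09 with 1 Veh mouse left out, highest without Veh 6). Clec4f and Mpeg1 were higher without overlap (Mpeg1 named after its values were seen), beside 1.34% of all genes. Clec4f, a lectin typical of Kupffer cells, was at 9.13, 8.75, 8.57 and 9.26 in Veh 2, 4, 5 and 7 and at 7.08 to 8.30 in the other 5. The complement gene C1qa was at 8.90, 8.67, 7.82 and 9.33 against 6.82 to 8.49, and Veh 5 was again inside the range of the other 5. Ctss, a lysosomal protease, was at 8.67, 7.81, 6.80 and 8.81 against 6.34 to 7.66. The mean level of the macrophage list was 6.12 to 7.38 in the 4, 5.37 to 6.84 in the other 5, 5.84 to 6.81 in Con and 5.22 to 6.42 in Dex. In whole liver, more cells of a type and more RNA per cell cannot be told apart. The part of such cells in the interferon and acute phase values was not tested.

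The neutrophil list was also higher in the 4, by a wide margin in Lcn2 alone. All 4 measured had a higher median there, the median difference was 0.82 (0.73 to 0.92 with 1 Veh mouse left out), and the list's mean level was 6.80 to 7.32 in the 4, 4.98 to 6.13 in the other 5, 4.85 to 6.95 in Con and 6.71 to 7.94 in Dex. Of these markers Lcn2 alone, which hepatocytes also make, did not overlap. Its difference of 4.77 weighs heavily in the list's mean level. Camp, a granule peptide, was at 5.28 to 6.18 against 3.38 to 6.03. The receptor Csf3r differed by 0.43 and the protease Elane by 0.21, both with overlap. The part of neutrophils in the acute phase values was not tested. Markers of the remaining cell types differed less or were lower in the 4. The 12 hepatocyte markers had a median difference of -0.03 (-0.21 after quantile normalization, 0.24 with centred arrays), none without overlap, and mean levels of 11.39 to 11.70 in the 4 and 11.36 to 11.73 in the other 5. The 5 B cell markers all had a lower median in the 4 (list median 0.086 without Veh 6) and the 3 T and NK cell markers differed by a median of -0.07, each with overlap. Endothelial markers differed by a median of -0.22 (-0.11 without Veh 9, -0.034 after quantile normalization, 0.0095 with centred arrays), also with overlap. Red cell markers differed by 0.06, and this ran from -0.13 to 0.22 with 1 Veh mouse left out. In the exocrine pancreas list, the protease Cela1, also made by liver, was lower without overlap (7.17 to 8.31 against 8.77 to 9.07), and the digestive enzyme genes Clps, Cel, Cela2a and Ctrb1 overlapped. In the stellate cell and fibroblast list Tagln was lower without overlap, at 4.37 to 4.91 against 4.94 to 5.39. The bright hepatocyte markers thus bear out the label liver for both sets, and their ranges overlapped.

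**Figure D3:**
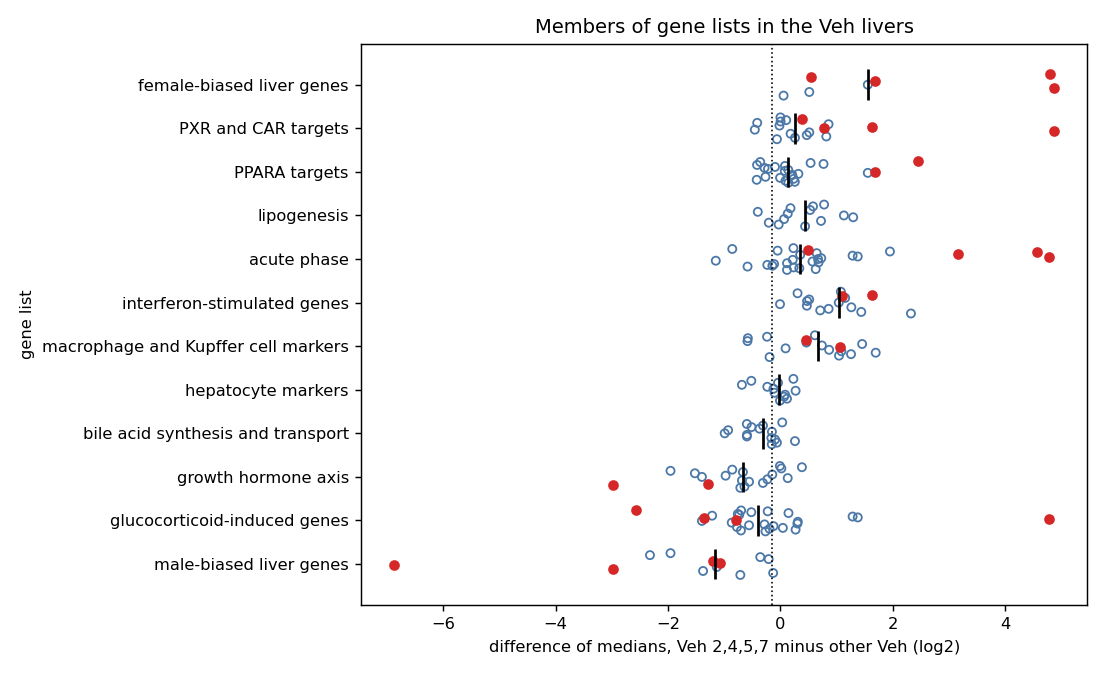
Difference of medians (x axis, log2, the 4 mice minus the other 5) for each measured member of 12 gene lists (y axis), without Cyp7b1 and Cyp2b9. Filled red points do not overlap between the sets, open points do, black bars are list medians and the dotted line is the median of all counted probe sets, -0.16. Female-biased genes all lie to the right of 0 and male-biased genes all to the left.

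Other genes without overlap had no common list. Higher in the 4 were Vnn1, a pantetheinase and PPARA target (5.23 to 7.29 against 3.31 to 5.05), Lgals1, the lectin galectin-1 (7.42 to 9.25 against 6.53 to 7.34), and Gas6, a ligand of the TAM receptor kinases (lowest 7.67 in the 4, highest 6.91 in the other 5). Rtn4, an endoplasmic reticulum protein also known as Nogo, was at 7.59 to 8.83 against 5.26 to 6.75. Veh 2 was the highest mouse for Vnn1, Lgals1 and Gas6, and Veh 7 for Rtn4. Slfn2, a schlafen gene of immune cells, was weaker, at 5.0 to 6.56 against 1.43 to 4.85. Vps26a, a retromer subunit, differed by 1.69 and Traf5, an adaptor of tumour necrosis factor receptors, by 1.57, with the closest mice of the 2 sets at 6.40 and 6.30 for Vps26a and at 5.83 and 5.66 for Traf5. For Traf5 the Con median was 6.38, above the median of the 4 (5.91), so there the 4 were nearer to Con.

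Lower in the 4 was Elovl2, an elongase of polyunsaturated fatty acids, at 5.66 to 6.79 against 6.86 to 8.87. Lpin1, a phosphatidate phosphatase, was at 5.63, 6.04, 6.21 and 5.30 against 7.0 to 8.06. Zbtb16, a zinc finger factor known to be induced by glucocorticoid, was at 2.81, 4.08, 3.15 and 3.32 against 4.83 to 6.98. Smo, the signal transducer of the hedgehog pathway, was at 1.38 to 3.31 against 4.31 to 5.50, and so near the floor in the 4. The remaining genes of this group were also dim. Mllt3, a subunit of elongation complexes, differed by -2.22, Syngr1, a vesicle protein, by -2.06, the kinase Dyrk1a by -1.57, the chemokine receptor Cx3cr1 by -1.52, Uri1, a prefoldin-like protein, by -1.44 and Gm17811 by -1.34. A second Uri1 probe set overlapped.

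**Figure D4:**
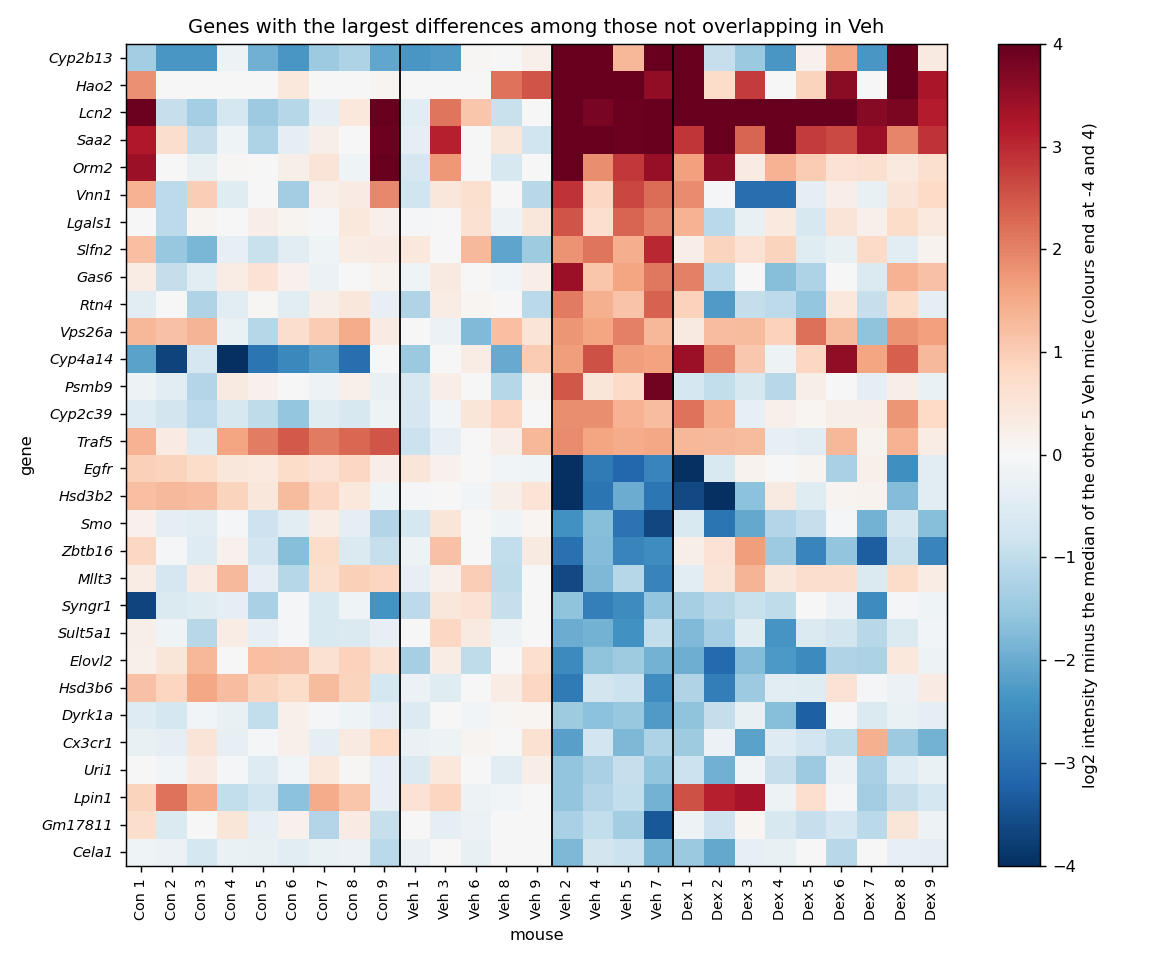
Log2 intensity minus the median of the other 5 Veh mice, for the 15 genes with the largest positive and the 15 with the largest negative difference without overlap (rows, without Cyp7b1, Cyp2b9 and Hsd3b5), in all 27 mice (columns). Colours end at -4 and 4. The rows were chosen on the Veh mice. In the 18 Con and Dex mice, Dex 1 and Dex 8 share the high Cyp2b13 and Hao2 and the low Egfr of the 4, while high Lcn2 and Saa2 spread over all Dex mice.

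Metabolic lists differed in whether they held genes without overlap. Of 23 measured PPARA targets, genes of fatty acid use, 2 were higher without overlap (Cyp4a14 and Vnn1) and 0 were lower. Over all genes, 1.34% were higher and 3.51% lower without overlap. The median difference of the PPARA targets was 0.14 (0.34 with centred arrays). Of 13 lipogenic genes 10 had a higher and 3 a lower median in the 4, where 35.1% of all genes were higher, and the median difference was 0.44 (0.17 without Veh 5, the lowest value, and nearly as low without Veh 4). Of 16 genes of cholesterol synthesis 13 had a higher and 3 a lower median, with a median difference of 0.40 (0.29 to 0.45 with 1 Veh mouse left out). No gene of these 2 lists was without overlap. Fasn, the fatty acid synthase, was at 11.13, 11.32 and 11.04 in Veh 4, 5 and 7 and at 9.78 in Veh 2, and the other 5 spread from 9.45 to 11.43. Bile acid genes other than Cyp7b1 had a median difference of -0.31 over 15 members, none without overlap, and the value was -0.15 without Veh 2 and -0.02 with centred arrays. Cyp7a1, the rate-limiting enzyme of bile acid synthesis, had medians of 4.88 and 5.48. Gluconeogenic and amino acid genes differed by a median of -0.13 over 18 members (-0.28 without Veh 5, 0.02 with centred arrays), with Pck1, which encodes the key enzyme of glucose synthesis, at 7.65 to 8.44 against 7.53 to 10.08.

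Genes induced by glucocorticoid were mixed. Of 26 measured, 8 had a higher and 18 a lower median in the 4. This split was near that of all genes, of which 35.1% were higher. The median difference was -0.40, with -0.20 without Veh 7 and nearly as little without Veh 3 or Veh 6. Lcn2 was higher without overlap, while Zbtb16, Lpin1 and Klf9 were lower (Klf9 named after its values were seen). Over all genes, 1.34% were higher and 3.51% lower without overlap. Of 11 genes of the fasting and insulin response, 2 were lower without overlap, Lpin1 and Irs2, an insulin receptor substrate, at 2.49 to 4.74 against 4.92 to 5.65. Of 15 NRF2 targets, genes of antioxidant defence, Gstm3 was higher and Srxn1 and Gclm were lower without overlap (Gclm named after its values were seen), but a second Srxn1 probe set overlapped. Of 12 clock genes none was without overlap, and Dbp, an output factor of the clock, ranged from 1.38 to 8.22 in the other 5 and from 4.47 to 6.48 in the 4.

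Whether the same genes go with Cyp7b1 outside Veh was tested in the 9 Con and 9 Dex mice. Cyp7b1 varied less in Con (SD 0.447, n = 9) than in Dex (SD 1.44, n = 9) or Veh (SD 1.82, n = 9). The slope of each probe set on Cyp7b1, with separate group means, was tested with limma over 6483 probe sets. At an adjusted p of 0.05, 0 rose and 0 fell with Cyp7b1 (0.0% each), and 392 (6.05%) had an unadjusted p under 0.05. In data simulated at the same size the fit found 11.9%, 62.7% and 89.4% of slopes of 0.25, 0.5 and 1. Small slopes were mostly missed even there. The simulation used normal noise of the same spread in Con and Dex and planted many true slopes. Its shares therefore need not hold for the real data, where steep slopes may be missed too.

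The steepest of the named genes was Cyp2b9, at -1.41 ± 0.24 log2 units per log2 unit of Cyp7b1 (standard error of the fit, 18 mice, limma adjusted p = 0.0554). Egfr had a slope of 0.94 ± 0.22 and Gas6 of -0.64 ± 0.15 (limma adjusted p = 0.169 each). Hsd3b5 had 1.13 ± 0.37 (limma adjusted p = 0.559). Those signs are the ones seen within Veh, and no slope passed the threshold as fitted here. Cyp2b9 did pass with the floor at the 20th percentile (limma adjusted p = 0.0263), with the beta-actin ratio added (limma adjusted p = 0.0229) and without Con 6, Dex 2 or Dex 8 (limma adjusted p = 0.0391, 0.0167 and 0.00305). Over all alternatives its adjusted p ran from 0.00305 to 1.0 and its slope from -1.60 to -0.99. Cyp2b13 had -0.98 ± 0.41 (limma adjusted p = 0.767), Hao2 -0.81 ± 0.36 (adjusted p = 0.803), Cyp4a14 -0.61 ± 0.25 (adjusted p = 0.754) and Hsd3b2 0.51 ± 0.25 (adjusted p = 0.840). Without Dex 1 the slope was 0.37 for Egfr, -0.63 for Cyp2b13 and -0.61 for Hao2, and without Dex 5 it was -1.55 for Cyp2b13. Dex 1 and Dex 8 were the Dex mice most like the 4, with Cyp2b13 at 8.19 and 9.50, Hao2 at 6.74 and 7.51, and Egfr at 3.0 and 6.57, where the other 7 Dex mice had Cyp2b13 at 5.24 or less and Egfr at 7.75 or more. Their Cyp7b1 was at 6.09 and 8.25.

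The acute phase and immune genes had slopes near 0 in the same fit. The slope was 0.11 ± 0.42 for Lcn2, 0.13 ± 0.31 for Saa2 and -0.07 ± 0.28 for Orm2 (limma adjusted p = 0.993 each). For Psmb9 it was -0.01 ± 0.11 and for Clec4f -0.00 ± 0.10 (limma adjusted p = 0.999 each). The standard errors of Lcn2, Saa2 and Orm2 were as wide as that of Hao2 or nearly so. Whether the acute phase slopes differ from those of the sex-biased genes was not tested.

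**Figure D5:**
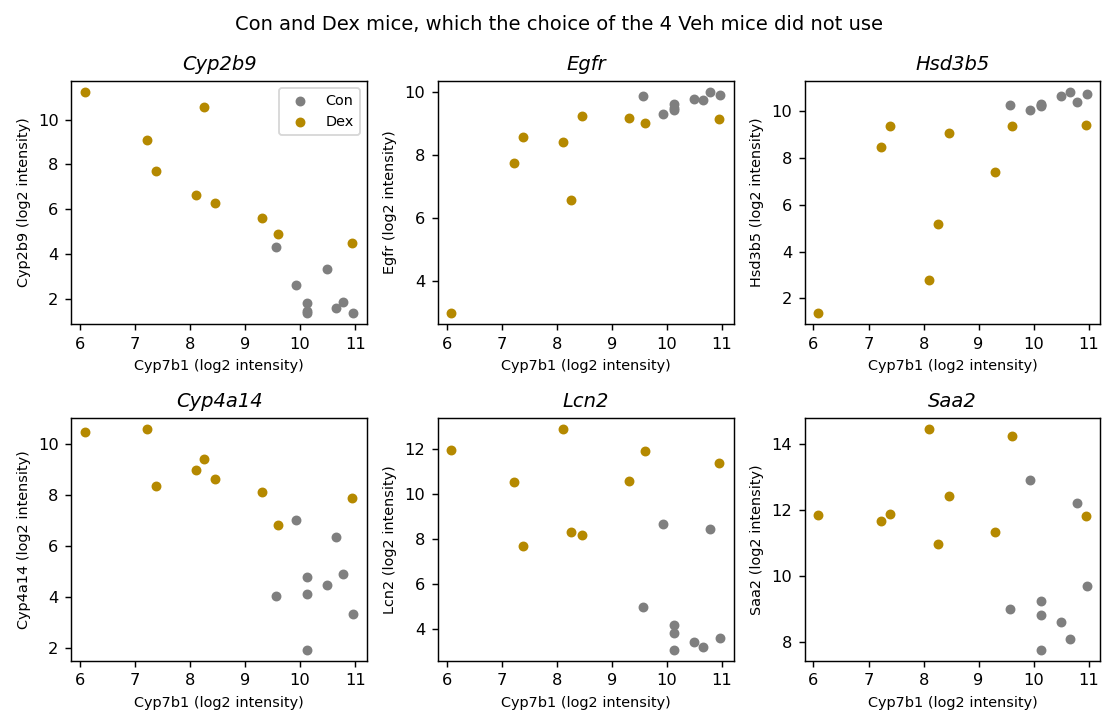
Log2 intensity of 6 genes (y axis) against that of Cyp7b1 (x axis) in the 9 Con (grey) and 9 Dex (gold) mice, 1 point per mouse. Cyp2b9 is highest and Egfr lowest in the Dex mouse with the least Cyp7b1, and Lcn2 and Saa2 have no clear slope within Dex.

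By sign, 58 of the 83 probe sets higher in the 4 Veh mice had a negative slope on Cyp7b1 in Con and Dex, and 25 a positive one. Of these 83, 21 had an unadjusted p under 0.05 in the limma fit, all negative. Of the 234 lower in the 4, 121 had a positive slope and 113 a negative one, and 19 of the 21 with an unadjusted p under 0.05 were positive. Over all 6482 probe sets, 49.3% were positive. The probe sets share mice and are not independent, so these counts are given as descriptions. The near even split of the lower set did not hold in other choices of mice, since 72 of the 234 were positive without Dex 1, 2 and 3, and 69 in Dex 4 to 9 alone.

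Correlations with Cyp7b1 were also computed within Con and within Dex for 14 genes, 28 relations in all, each with a two-sided exact permutation test, and 0 passed after Benjamini-Hochberg adjustment. In Dex, Cyp2b9 gave r = -0.838 (exact p = 0.00402, adjusted 0.106) and rho = -0.90 (exact p = 0.00203, adjusted 0.0567), and r = -0.685 without the 2 mice farthest in Cyp7b1. Cyp4a14 in Dex gave r = -0.785 (exact p = 0.0126, adjusted 0.106) and rho = -0.85 (exact p = 0.00607, adjusted 0.0567), and r = -0.779 without those 2 mice. Egfr in Dex gave r = 0.712 (exact p = 0.0315, adjusted 0.176) and rho = 0.733 (exact p = 0.0311, adjusted 0.174), with r = 0.458 without the 2. In Con, where Cyp7b1 spanned little more than 1 log2 unit, Hsd3b2 gave r = 0.794 (exact p = 0.00986, adjusted 0.106) and rho = 0.867 (exact p = 0.00451, adjusted 0.0567), and Hsd3b5 gave r = 0.778 (exact p = 0.0152, adjusted 0.106) and rho = 0.783 (exact p = 0.0172, adjusted 0.121). Without the 2 farthest Con mice r was 0.743 for Hsd3b2 and 0.821 for Hsd3b5. Lcn2 gave r = 0.132 in Dex (exact p = 0.735, adjusted 0.935) and rho = 0.0333 (exact p = 0.948, adjusted 0.948), and r = 0.354 without the 2 mice.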

How the data were processed

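The data are 27 Affymetrix arrays of mouse liver RNA, 9 each in Con, Veh and Dex, by the sample titles; per the labels' protocols, RNA was extracted with Trizol and cleaned on RNeasy columns, and Bioanalyzer traces were used to judge it. The authors deposited 1 linear intensity per probe set and array. Their trimmed means (2% off each end) were 100.1 to 100.2, so the deposited intensity values had already been scaled array by array; the sources used here do not name the software or its version. No scaling was added. Values were raised to a floor at the 10th percentile of positive values (2.6) and log2 was taken of the deposited intensities. Of 12488 probe sets, 66 controls were left out; the platform annotation gave 1 symbol for 10855, several for 396 and none for 1237, and probe sets with several symbols were not named. The probe set with the highest mean stands for a gene.

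The 4 Veh mice, the 34 gene lists and the genes compared were chosen with earlier results of these data known. Named were the genes behind the choice, the 15 genes with the largest difference of medians in each direction without overlap, all members of the sex-biased, growth hormone and steroid lists, and up to 5 members of each other list. Slopes were fitted in R 4.3.3 with limma 3.58.1 (lmFit, eBayes with trend, 15 residual degrees of freedom, Benjamini-Hochberg), and the fit was tested on simulated data. Python 3.11.15, pandas 2.3.3 and numpy 2.4.6 did the rest. Each array is 1 mouse; arrays have no read depth, so their number limits the precision. Alternatives covered scaling, floor, filter, samples left out, the beta-actin ratio and a block for replicate number.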

Additional observations from a re-analysis of the deposited data

Results flagged for a closer look

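Among the 33 genes named for the choice or for the largest differences, each looked at in the 4 mice and in the other 5 (66 sets), 6 sets held a mouse far from the rest of its set by Dixon's criterion, which chance meets in about 1 of 20 sets. Cyp2b13 in Veh 5 was at 5.03, where the next lowest of the 4 was at 8.46. Egfr in Veh 2 was at 3.04, against 5.90 for the next lowest. Cyp4a14 in Veh 4 was at 9.59, above 8.72 in the next highest of the 4. Gm17811 in Veh 7 was at 1.96, below 3.97 in the next. Among the other 5 mice, Orm2 in Veh 3 was at 7.61, above 5.90 in the next highest, and Dyrk1a in Veh 1 was at 4.68, below 5.14 in the next lowest. Every one of the 4 mice was thus apart in 1 gene, so no single animal stood apart throughout these 33 genes.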

How the results depend on the processing

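Of the settings tried, rescaling alone could make the 30 genes with the largest differences overlap; 30 stayed apart with centred arrays and 29 after quantile normalization. A filter on 9 of 27 arrays measured 27 of them and one on all 9 Veh arrays 11. Probe sets higher and lower without overlap numbered 83 and 234, 128 and 149 after quantile normalization, 157 and 105 with centred arrays, and 317 and 644 without both Veh 2 and Veh 5 (the last 2 settings were added after the data were seen). A filter on all 9 Veh arrays left 150 lower. With medians also 2-fold apart, the 31 and 61 became 55 and 25 with centred arrays, 50 and 122 without a filter, 18 and 17 under the all-array filter and 80 and 167 without Veh 2 and 5, and quantile normalization left 26 lower. Leaving out 1 Veh mouse at a time gave 108 to 158 higher and 274 to 488 lower, and 26 to 52 and 55 to 119 with 2-fold medians; fewer mice make non-overlap easier by construction. The counts moved by more than 1.5 times without Veh 1 (137 and 488), Veh 4 (137 and 426), Veh 5 (158 and 356), Veh 7 (133 and 368) or Veh 8 (lower only, 401).

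List medians (log2) moved beyond their spread as follows. Quantile normalization gave -0.21 for hepatocyte, -0.034 for endothelial and 0.15 for pancreas markers. Centred arrays gave -0.022 for bile acid genes, 0.34 for PPARA targets, 0.021 for gluconeogenesis, 0.35 for NRF2 targets, 0.029 for endoplasmic reticulum stress, 0.24 for hepatocyte, 0.0095 for endothelial, 0.015 for stellate cell and 0.15 for pancreas markers. The all-array filter gave 0.25 for immediate early genes, the 9-of-27 filter 0.54 for female-biased genes, and leaving out Veh 2 and 5 -0.34 for the growth hormone axis and 0.16 for hepatocyte markers. Leave-one-out ranges were -0.37 to -0.13 for endoplasmic reticulum stress, -0.36 to 0.00 for pancreas, -0.28 to -0.090 for gluconeogenesis and -0.60 to 0.086 for B cell markers. The cause was not tested.

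In the Con and Dex slope fit, 1 probe set, Cyp2b9, passed as falling with a floor at the 20th percentile (slope -1.36) and with the beta-actin ratio added (-1.47), where 1 also passed as rising; leaving out 1 mouse gave 0 to 6 falling, 6 without Dex 2 and 1 without Con 6 or Dex 8. Positive slopes among the 234 lower probe sets numbered 121, 72 without Dex 1 to 3, 69 in Dex 4 to 9 alone, and 93 to 145 with 1 mouse left out. In Con alone Hao2 turned to 0.56 and Lcn2 to -0.53; with 1 Dex mouse left out Lcn2 ran from -0.080 to 0.49 and Saa2 from -0.023 to 0.35.

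Replicate numbers did not pair mice: same-numbered Con and Dex deviations correlated between -0.18 and 0.19. With the number as a replicate block the fit gave 0 rising, 0 falling and 273 unadjusted, against 392 without it. No paired analysis was possible for the 4 against the other 5, which carry different numbers. Dim signals also limit the lower set, as 88 of its 234 probe sets had a median under 5 in the 4.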
